A study of Mus musculus with 16 samples.

Results

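The genes described here are the replication-dependent histone genes of the mouse, measured in tail intervertebral discs. Members were the genes whose name begins with Hist1h to Hist4h or with a current histone symbol (H1f, H2ac, H2bc, H3c or H4c and a number), and whose value was above 0 in at least 3 libraries. Of 69 genes with such a name, 58 met the rule, of 49315 genes in the table. They comprised 7 genes for linker histone H1, 15 for H2A, 13 for H2B, 10 for H3 and 13 for H4. The name pattern also took in H1f0, which encodes a replacement linker histone made outside S phase, the pseudogenes Hist3h2bb-ps and Hist1h2al, and Hist1h1t, the linker histone of the testis. The other 55 members besides H1f0 and the pseudogenes were protein-coding, and all sums below are over these 55 or over parts of them.

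The study compared injured with intact tail discs in wild-type mice and in Adam8EQ mutants, with 1 bulk RNA library per mouse made from 4 pooled discs. The wild type was labelled DBA in the study's title. There were 3 intact and 4 injured wild-type mice, and 4 intact and 5 injured mutants. Adam8 encodes a membrane-bound metalloprotease, and the labels did not describe the EQ allele, the form of the injury, the time after it or the age of the mice. The libraries carried names of their own in the labels, starting with D in the wild type and with A8 or M in the mutants. Mutants 1 and 2 of each group had A8 names and the others M names, so the naming could be told apart from injury in the mutants, but not from genotype. What the letters stand for was not given. No label joined mice into litters or batches, but the library names also held numbers. These ran in separate stretches for intact and injured mice in the wild type and in the A8 series. In the M series they ran on from injured to intact mice. Injured wild-type mice 1 and 2 had adjoining numbers, as had mice 3 and 4. What the numbers stand for was not given. Anything that goes with them cannot be told apart from injury in the wild type and the A8 series.

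Replication-dependent histone genes supply the core histones H2A, H2B, H3 and H4 and the linker histones that package newly copied DNA. They have many nearly identical copies in a few clusters, lack introns, and are transcribed mainly in S phase. Their mRNAs usually end in a conserved stem-loop instead of a poly(A) tail. The stem-loop is bound by the protein SLBP, which directs processing, export and translation of the mRNA. Some of these genes can also give longer, polyadenylated mRNAs in cells that have stopped dividing. A library selected on poly(A) loses most of the stem-loop form. The molecule was labelled as poly(A) RNA here, but the labelled extraction protocol used rRNA depletion. Rn7sk, an abundant RNA without a poly(A) tail, was measured at 36470.0 TPM on average in the intact wild type.

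TPM values are read densities per base of a gene, scaled to the same total in each library, so they can be compared between genes as far as the gene models are right. Levels were tested as log2(TPM + 1) with limma in 1 fit over all 16 libraries. A gene was tested when at least 3 libraries reached 1 TPM, which held for 24188 genes and for 57 of the 58 members (Hist1h2ao did not pass). A gene was called when its p-value, adjusted by Benjamini-Hochberg over all tested genes, was under 0.05. Fold changes on this scale understate those of low genes. The values behaved for most low genes like whole reads, which put the depth at 10193402 to 24816112 reads per library. Those implied counts were 13225240 to 24816112 in the injured mutants and 10193402 to 13721418 in the intact ones. The highest value is that of injured mutant 1 and the other 4 injured mutants had 13225240 to 14301278. Without that mouse 28 members were called in injured against intact mutants, against 30 with it. In a gene of 400 bases, 1 read was worth 0.432 to 1.01 TPM, so a member at a few TPM rested on few reads. In bulk tissue, fewer cells of a type and less RNA per cell cannot be told apart.

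Copies that share sequence are a limit of all values below. Over windows of 100 bases, 20 of the 58 members shared more than 50% of their transcript sequence with another gene, and 6 members shared none. Of the 7 genes of the name pattern that were at 0 in every library, 5 shared every window with other genes. Those 5 are also overlapped over their whole length by other gene models, as Hist2h3c1 is by Gm20634 on the same strand. How reads of copies or of overlapping models were handled could have set them to 0, which was not tested. Among the members, the shared part was large in Hist1h3h (92.0% shared), Hist1h2ai (88.4%) and Hist1h4m (88.1%). The linker histone genes Hist1h1a and Hist1h1b and the H4 genes Hist1h4d and Hist2h4 shared no window.

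The stem-loop is shown first because it defines the family. A 6-base stem starting with GG, a 4-base loop starting with TT and a perfectly paired second arm were found within 300 bases after the stop codon in transcripts of 38 of the 58 members. The same letters were found in 20 of 17269 other genes with 300 bases of sequence after the stop, or 0.116%. Many gene models end at or near the stop codon, and no match says only that these letters are not in the annotated sequence. Across the 38 members only 6 different elements occurred, and each began 21 to 54 bases after the stop codon. The 5 examples below cover the main elements, with the stem in capitals, 5′ to 3′, as DNA letters from the GENCODE transcripts.
Hist1h1c: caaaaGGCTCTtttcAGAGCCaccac
Hist1h3c: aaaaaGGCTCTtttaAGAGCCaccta
Hist1h2bf: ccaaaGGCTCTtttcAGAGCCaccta
Hist1h4d: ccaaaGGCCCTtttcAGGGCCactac
Hist2h4: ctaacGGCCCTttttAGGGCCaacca
The element of Hist1h1c and Hist1h2bf was shared by 20 members of the H1, H2A, H2B and H3 classes, and that of Hist1h3c by 6 members of the H1, H2B and H3 classes. The element of Hist1h4d was found in 7 members, all of class H4, and that of Hist2h4 in 2 members of class H4. The same element therefore stood in genes with very different responses: Hist1h1c and Hist1h2bf have the same stem and loop, and their values are given below.

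After injury, many replication-dependent histone genes were higher in the mutants. Of the 57 tested members, 30 rose and none fell in injured against intact mutants. Over all tested genes 13.1% were called higher and 17.7% called lower in this comparison. These shares also belong beside all counts below of members called in injured against intact mutants, unless others are given. The median log2 change was 1.26 over the tested members and -0.08 over all tested genes. In 24 members every injured mutant was above every intact mutant, against 12.0% of all tested genes. In 1 member, Hist2h2be, every injured mutant was below every intact one, against 15.3% of all tested genes. Of the 57 tested members, 56 reached 1 TPM in 3 of the 11 libraries other than the injured mutants, and these 56 held all 30 called members. The plot of single members shows the order of the changes.

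**Figure D1:**
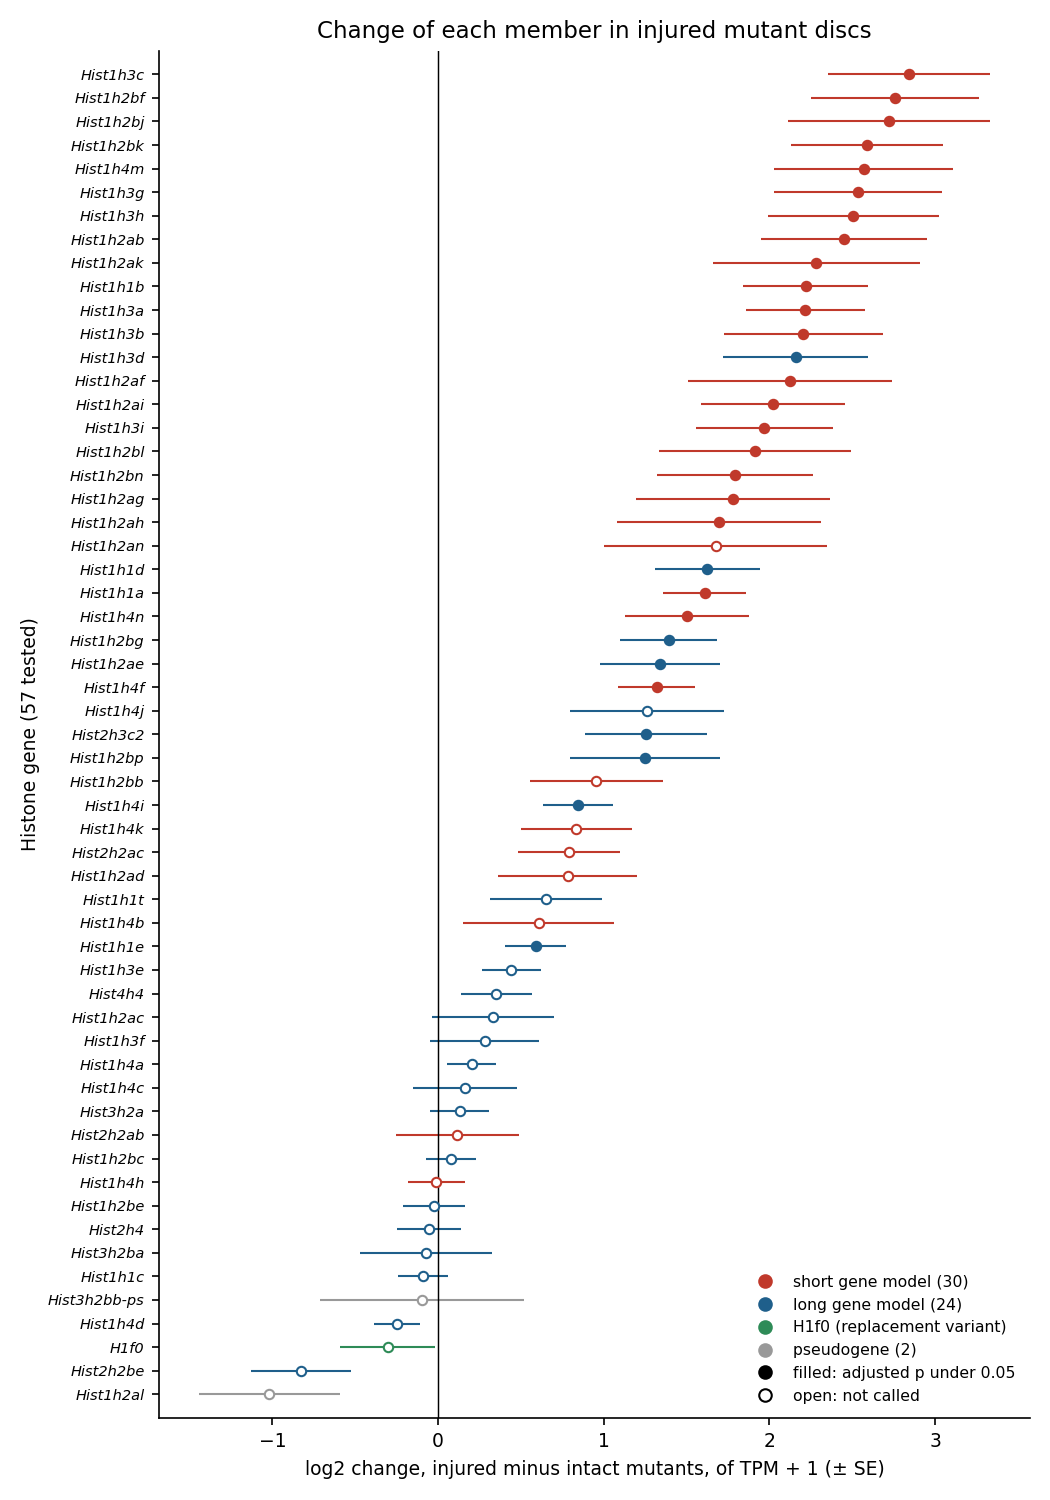
Each point is the log2 change of TPM + 1 in injured minus intact mutants for 1 of the 57 tested members, with its standard error as a bar; filled points were called (adjusted p under 0.05), and colour gives the kind of gene model. The 30 called members lie to the right of 0, up to 2.84 for Hist1h3c, and 22 of them are short gene models.

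The 4 largest called rises were in core histone genes of the H3 and H2B classes. Hist1h3c (chr13:23744973-23745602, minus strand) encodes an H3 protein and was at 0, 1.93, 3.02 and 3.802 TPM in the intact mutants and 27.9, 43.3, 11.9, 15.8 and 9.62 TPM in the injured mutants. Wild-type Hist1h3c levels were 6.94, 9.64 and 7.93 TPM in the intact mice and 7.86, 8.33, 22.8 and 17.1 TPM in the injured mice. All 5 injured mutants were above all 4 intact ones, and the injured wild-type mice 3 and 4 were above the other 5 wild-type mice. The log2 change of Hist1h3c was 2.84 ± 0.49 (SE) in the mutants (limma, adjusted p = 0.0013), against 0.59 ± 0.56 in the wild type (adjusted p = 0.594).

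Hist1h2bf (chr13:23573736-23574196, minus strand) encodes an H2B protein and was at 0.877, 1.36, 10.9 and 2.69 TPM in the intact mutants and 34.4, 38.9, 13.9, 40.01 and 10.9 TPM in the injured mutants. Wild-type Hist1h2bf levels were 5.89, 15 and 7.57 TPM in the intact mice and 13.9, 14.5, 22.9 and 13.9 TPM in the injured mice. In the mutants intact mouse 3 was at the level of the lowest injured mouse, and the groups overlapped only there. The log2 change was 2.76 ± 0.51 in the mutants (limma, adjusted p = 0.0018), against 0.79 ± 0.58 in the wild type (adjusted p = 0.49).

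Hist1h2bj, another H2B gene (chr13:22043214-22043676, plus strand), was at 0, 0.679, 1.28 and 0.669 TPM in the intact mutants and 10.1, 10.8, 14.5, 6.43 and 7.45 TPM in the injured mutants. Wild-type Hist1h2bj levels were 0.733, 3.39 and 1.68 TPM in the intact mice and 0, 1.599, 12.4 and 9.66 TPM in the injured mice. The mutant groups did not overlap, and injured wild-type mice 3 and 4 were again above the other wild-type mice. Its log2 change was 2.72 ± 0.61 in the mutants (limma, adjusted p = 0.005).

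Hist1h2bk, also an H2B gene (chr13:22035870-22036345, plus strand), was at 2.55, 0.661, 0 and 0 TPM in the intact mutants and 13.8, 6.798, 7.72, 11.9 and 4.61 TPM in the injured mutants. Wild-type Hist1h2bk levels were 0, 0.66 and 1.63 TPM in the intact mice and 1.34, 3.89, 6.96 and 5.87 TPM in the injured mice. All injured mutants were above all intact ones, and injured wild-type mice 2, 3 and 4 were above all intact wild-type mice. Its log2 change was 2.59 ± 0.46 in the mutants (limma, adjusted p = 0.0015), against 1.61 ± 0.52 in the wild type (adjusted p = 0.173). Hist1h2bk shares 70.8% of its windows with other genes, Hist1h2bf 46.4%, Hist1h2bj 40.1% and Hist1h3c 28.4%, so these levels may include reads of sister copies.

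The mutants of each naming series were also fitted without those of the other series, with few mutant libraries in each fit. All wild-type libraries stayed in these fits and entered the estimate of the spread. With the A8-named mutants (2 intact and 2 injured) 20 of 57 members were called higher and none lower, against 6.65% of all tested genes called higher, and the median log2 change was 1.31 over the members. With the M-named mutants (2 intact and 3 injured) 3 members (Hist1h4m, Hist1h2bk and Hist1h1a) were called higher and none lower, against 1.32% of all tested genes called higher, and the median was 0.83. The median over all tested genes was -0.05 with the A8-named and -0.09 with the M-named mutants. With the start of the name as a covariate 29 members were called.

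The linker histone genes gave different values from one another. Between 0 and 5.1% of the windows were shared in Hist1h1a, Hist1h1b, Hist1h1c and Hist1h1d, and 24.7% in Hist1h1e. H1 binds the DNA that enters and leaves the nucleosome. Of the 7 H1 members, 4 rose in injured mutants (Hist1h1a, Hist1h1b, Hist1h1d and Hist1h1e) and none fell. Over all tested genes 13.1% were called higher and 17.7% lower. The bases before the start site of the 5 somatic genes are printed because these genes encode forms of the same protein and had different log2 changes. They are the 130 bases upstream of the RefSeq start, 5′ to 3′ along the gene, on GRCm38.p6. Capitals mark the CCAAT box on either strand and, also on either strand, the TATA box (letters TATAAA). They also mark the H1 box, a motif of H1 promoters (letters AAACACA).
Hist1h1a (chr13:23763538-23763667, plus strand): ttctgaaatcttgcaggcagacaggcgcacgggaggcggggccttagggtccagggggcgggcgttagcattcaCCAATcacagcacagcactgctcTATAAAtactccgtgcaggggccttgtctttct
Hist1h1b (chr13:21780626-21780755, minus strand): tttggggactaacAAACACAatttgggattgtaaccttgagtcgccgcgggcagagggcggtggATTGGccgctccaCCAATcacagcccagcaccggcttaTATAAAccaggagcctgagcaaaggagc
Hist1h1d (chr13:23554902-23555031, plus strand): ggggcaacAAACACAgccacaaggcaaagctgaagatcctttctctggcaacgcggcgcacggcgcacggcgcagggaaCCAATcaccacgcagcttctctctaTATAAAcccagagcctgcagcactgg
Hist1h1e (chr13:23622559-23622688, minus strand): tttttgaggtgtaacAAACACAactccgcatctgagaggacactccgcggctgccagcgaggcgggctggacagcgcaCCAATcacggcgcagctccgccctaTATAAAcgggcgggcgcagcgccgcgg
Hist1h1c (chr13:23738677-23738806, plus strand): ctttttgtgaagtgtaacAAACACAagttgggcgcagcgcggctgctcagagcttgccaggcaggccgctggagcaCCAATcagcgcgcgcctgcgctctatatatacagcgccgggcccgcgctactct
Over the 250 bases upstream, CCAAT was found in the promoters of 40 of the 51 members that matched the RefSeq table and in 33.8% of all 32851 promoters. TATAAA was found in 27 of the 51 and in 12.4% of all promoters. The H1 box was found in 6 of the 51, of which 5 were H1 genes, and in 6.25% of all promoters. Hist1h1a, which rose, had no AAACACA in this window, and Hist1h1c, which was not called, had one. CCAAT was found in 3 of 12 matched H4 promoters and in all 14 matched H2A promoters. A match is a description of letters and not evidence of a bound site.

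**Figure D2:**
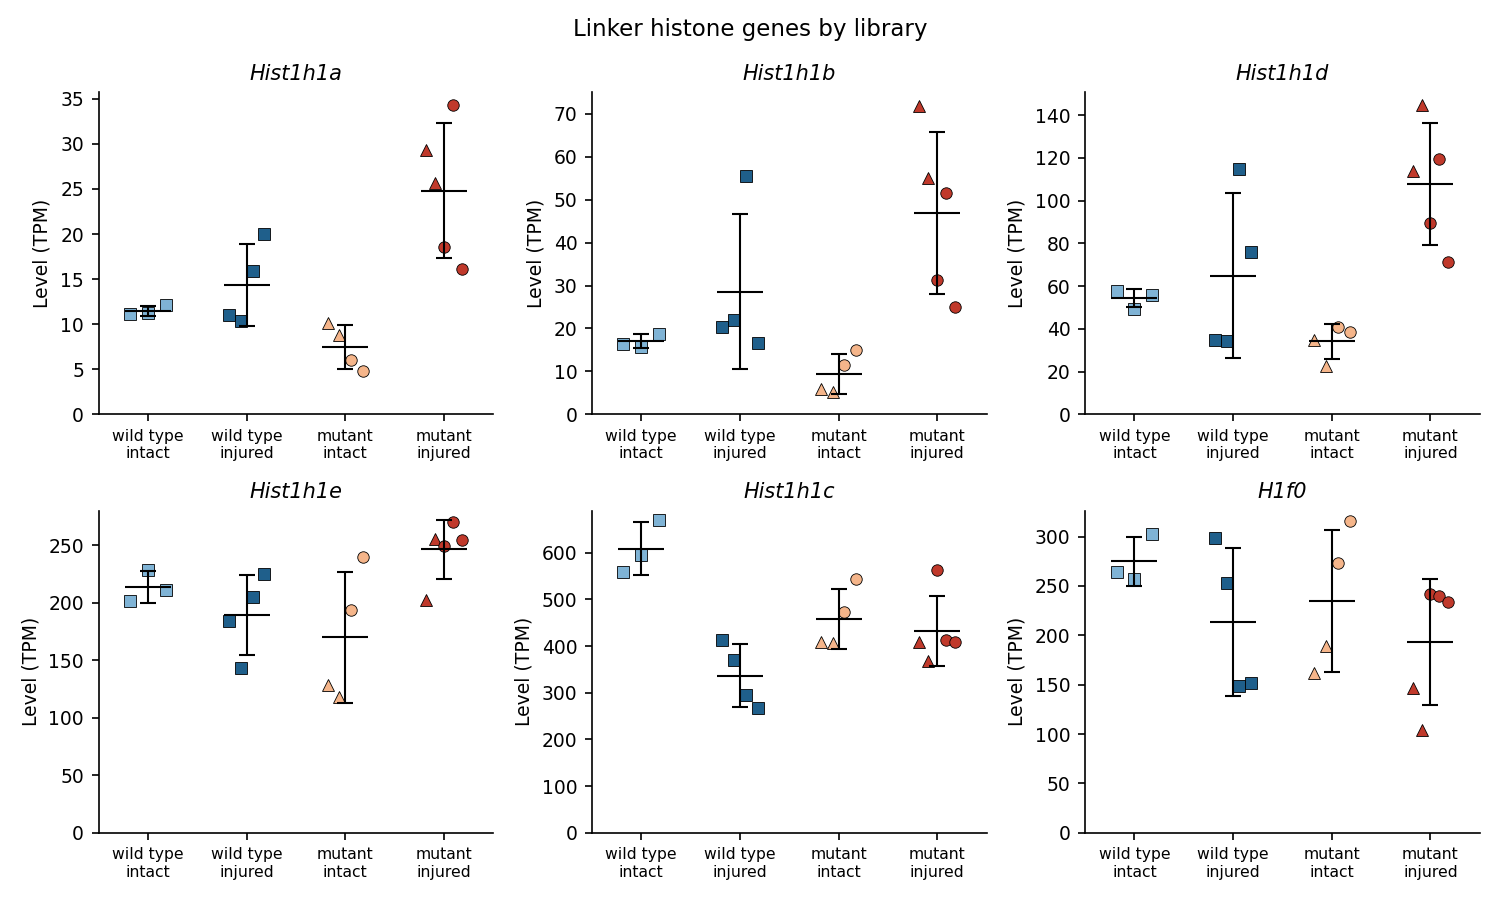
Each point is the TPM of 1 mouse for 6 linker histone genes, by genotype and injury, with the group mean and SD as a bar; triangles are mutants with A8 names, circles mutants with M names and squares the wild type. In Hist1h1a, Hist1h1b and Hist1h1d all 5 injured mutants are above all 4 intact ones, while Hist1h1c and H1f0 overlap between these groups.

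Hist1h1b (H1.5, ENSMUSG00000058773, chr13:21779883-21780625, minus strand) was at 5.99, 5.08, 11.5 and 15.01 TPM in the intact mutants and 71.8, 55.03, 31.3, 51.7 and 24.9 TPM in the injured mutants. Wild-type Hist1h1b levels were 16.4, 15.7 and 18.8 TPM in the intact mice and 20.2, 21.9, 55.5 and 16.6 TPM in the injured mice. The mutant groups did not overlap, and in the injured wild type mouse 3 stood well above the other 3. The mean was 9.404 ± 4.703 TPM (SD, n = 4) in intact and 46.9 ± 18.9 TPM (SD, n = 5) in injured mutants. The log2 change was 2.22 ± 0.38 in the mutants (limma, adjusted p = 0.0012), against 0.56 ± 0.43 in the wild type (adjusted p = 0.511).

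Hist1h1a (H1.1, ENSMUSG00000049539, chr13:23763666-23764406, plus strand) was at 10.1, 8.82, 5.98 and 4.83 TPM in the intact mutants and 29.3, 25.7, 18.6, 34.3 and 16.1 TPM in the injured mutants. Wild-type Hist1h1a levels were 11.1, 11.3 and 12.1 TPM in the intact mice and 10.97, 10.4, 15.9 and 20.02 TPM in the injured mice. Injured mutants were all above intact mutants, and the highest injured mutant was mouse 4. The log2 change of Hist1h1a was 1.61 ± 0.25 in the mutants (limma, adjusted p = 7.9e-04), against 0.25 ± 0.28 in the wild type (adjusted p = 0.667).

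Hist1h1d (H1.3, ENSMUSG00000052565, chr13:23553262-23560686, plus strand) was at 34.8, 22.4, 40.9 and 38.3 TPM in the intact mutants and 114, 145, 89.3, 119.6 and 71.2 TPM in the injured mutants. Wild-type Hist1h1d levels were 57.5, 49.4 and 55.8 TPM in the intact mice and 34.9, 34.3, 115 and 75.9 TPM in the injured mice. The mutant groups did not overlap, while in the wild type 2 injured mice were below every intact mouse and 2 above. The log2 change was 1.62 ± 0.32 in the mutants (limma, adjusted p = 0.0025), against 0.07 ± 0.36 in the wild type (adjusted p = 0.938).

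Hist1h1e (H1.4, ENSMUSG00000051627, chr13:23620629-23622558, minus strand) was at 128, 118, 193 and 239 TPM in the intact mutants and 203, 256, 249, 270.1 and 255 TPM in the injured mutants. Wild-type Hist1h1e levels were 201, 228 and 211 TPM in the intact mice and 184, 144, 205 and 225 TPM in the injured mice. Intact mutant 4 was within the range of the injured mutants, and the other 3 intact mutants were below it. The log2 change was 0.59 ± 0.19 (limma, adjusted p = 0.027), and this call was lost without intact mutant 1 (adjusted p = 0.0915), intact mutant 2 (0.101) or injured mutant 4 (0.0511). Hist1h1e overlaps Hist1h2be on the same strand, so part of its reads could belong to that gene.

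Hist1h1c (H1.2, ENSMUSG00000036181, chr13:23738808-23740367, plus strand) had the highest mean of all members, 448 TPM over all libraries. It was at 409, 406, 473 and 544 TPM in the intact mutants and 408, 367, 563, 412 and 409 TPM in the injured mutants. Wild-type Hist1h1c levels were 559, 596 and 670.3 TPM in the intact mice and 413, 370.5, 295 and 267 TPM in the injured mice. The mutant groups overlapped, and in the wild type every injured mouse was below every intact one. The log2 change of Hist1h1c was -0.09 ± 0.15 in the mutants (limma, adjusted p = 0.689), against -0.87 ± 0.17 in the wild type, where it missed the threshold (adjusted p = 0.078; 0.024 without injured wild-type mouse 1).

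H1f0 (H1.0, ENSMUSG00000096210, chr15:79028450-79030504, plus strand), the replacement linker histone found in differentiated cells, was at 162, 189.5, 273 and 316 TPM in the intact mutants and 147, 104, 242, 239.5 and 234 TPM in the injured mutants. Wild-type H1f0 levels were 264, 257 and 303 TPM in the intact mice and 299, 253, 149 and 152 TPM in the injured mice. The groups overlapped in both genotypes, with injured mutants 1 and 2 the lowest of the mutants and injured wild-type mice 3 and 4 the lowest of the wild type. The log2 change of H1f0 was -0.30 ± 0.29 in the mutants (limma, adjusted p = 0.452). The testis gene Hist1h1t had a mean of 2.07 TPM over all libraries and was not called.

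Each of the 5 somatic H1 genes was also expressed as a share of their sum. Hist1h1c made up 66.1% to 69.2% of their summed TPM in intact wild-type mice, 64.6% to 72.5% in intact mutants and 43.3% to 59.2% in injured mutants. In the injured wild type its share was 62.3%, 63.8%, 43.0% and 44.2% in mice 1 to 4. The mutant groups did not overlap, and injured wild-type mice 3 and 4 were in the range of the injured mutants or just below it. The share of Hist1h1b was 0.906% to 1.78% in intact and 3.21% to 8.7% in injured mutants, and that of Hist1h1d 3.99% to 5.92% and 9.17% to 17.1%. The size of each share depends on the lengths of the gene models.

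H2A and H2B pair with each other in the nucleosome, and many of their genes lie head to head and share the stretch between their starts. Among H2A members, 7 of 14 tested rose in injured mutants and none fell, and among H2B members 7 of 13 rose and none fell. Over all tested genes 13.1% were called higher and 17.7% lower. The H2A gene with the highest mean was Hist1h2ac (chr13:23681467-23683948, minus strand), at 13.6, 9.91, 19.9 and 22.8 TPM in the intact mutants and 30.4, 11.1, 19.9, 41.9 and 11.2 TPM in the injured mutants. Wild-type Hist1h2ac levels were 14.3, 15.8 and 10.6 TPM in the intact mice and 22.2, 11.7, 10.1 and 10.6 TPM in the injured mice. Its groups overlapped in both genotypes, and its log2 change in the mutants was 0.33 ± 0.37 (limma, adjusted p = 0.531).

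Hist1h2ak, the H2A gene with the second highest mean (chr13:21753435-21753827, minus strand), was at 1.029, 4.001, 11.3 and 7.88 TPM in the intact mutants and 25.03, 30.7, 21.03, 50.7 and 17.6 TPM in the injured mutants. Wild-type Hist1h2ak levels were 15.6, 7.197 and 4.93 TPM in the intact mice and 2.44, 8.48, 36.8 and 14.9 TPM in the injured mice. The mutant groups did not overlap, and the injured wild-type mice ranged from below to above the intact ones. The log2 change was 2.28 ± 0.62 in the mutants (limma, adjusted p = 0.014; 0.0501 without intact mutant 1), against 0.35 ± 0.71 in the wild type (adjusted p = 0.827).

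Hist1h2bc (chr13:23684199-23692908, plus strand) had the highest mean of the H2B genes and was at 102, 129.5, 93.2 and 133 TPM in the intact mutants and 106, 95.1, 151, 123 and 132 TPM in the injured mutants. Wild-type Hist1h2bc levels were 147, 133 and 121 TPM in the intact mice and 95.7, 116, 83.1 and 80.9 TPM in the injured mice. The mutant groups overlapped, and every injured wild-type mouse was below every intact one. The log2 change was 0.08 ± 0.15 in the mutants (limma, adjusted p = 0.721), against -0.51 ± 0.17 in the wild type (adjusted p = 0.182).

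Hist1h2bg, second among the H2B genes (chr13:23571396-23572013, plus strand), was at 11.9, 19.1, 16.1 and 27.3 TPM in the intact mutants and 67.3, 51.2, 39.1, 57.4 and 34.2 TPM in the injured mutants. Wild-type Hist1h2bg levels were 29.9, 42.8 and 34.97 TPM in the intact mice and 30.9, 17.9, 56.2 and 31.1 TPM in the injured mice. All injured mutants were above all intact ones. Its log2 change was 1.39 ± 0.29 in the mutants (limma, adjusted p = 0.0036), against -0.17 ± 0.33 in the wild type (adjusted p = 0.814).

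The annotation held 13 head-to-head H2A and H2B pairs among the genes of the name pattern, with starts at most 500 bases apart, and both partners were tested in 10. In 5 of these 10 pairs both partners rose in the mutants, in 2 pairs 1 partner rose, and in 3 pairs neither was called. The pair with Hist1h2ag (1.78) and Hist1h2bj (2.72) and the pair with Hist1h2ah (1.69) and Hist1h2bk (2.59) were among those where both rose, by the log2 changes in brackets. In the pair of Hist1h2ac (0.33) and Hist1h2bc (0.08) neither was called. In the pair of Hist2h2ac and Hist2h2be on chromosome 3 the log2 changes were 0.79 ± 0.31 and -0.83 ± 0.30, and neither was called (limma, adjusted p = 0.064 and 0.051).

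Hist2h2be, which was singled out after its values were seen, was the coding member with the lowest change in injured mutants. It was at 23.5, 27.2, 22.1 and 26.2 TPM in the intact mutants and 16.4, 10.6, 12.5, 19.3 and 10.53 TPM in the injured mutants. Wild-type Hist2h2be levels were 39.5, 28.4 and 33.6 TPM in the intact mice and 40.9, 35.2, 11.6 and 14.9 TPM in the injured mice. Every injured mutant was below every intact mutant, and injured wild-type mice 3 and 4 were below all other wild-type mice. Its adjusted p just missed the threshold in limma, and with voom, a limma test on reads, applied to the implied reads it was called lower, as was the pseudogene Hist1h2al.

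Histone H3 carries many of the modifications that mark active and silent chromatin. Of 10 H3 members, 8 rose in injured mutants and none fell, against 13.1% and 17.7% of all tested genes. The median log2 change of the H3 members was 2.18. The uncalled members were Hist1h3e and Hist1h3f, the H3 genes with the highest means. Hist1h3e (chr13:23561534-23562369, minus strand) was at 43.5, 43.6, 44.9 and 44.5 TPM in the intact mutants and 54.9, 85.5, 50.9, 70.5 and 47.2 TPM in the injured mutants. Wild-type Hist1h3e levels were 51.98, 62.03 and 37.1 TPM in the intact mice and 50.5, 45.6, 65.2 and 64.5 TPM in the injured mice. The mutant groups did not overlap, by a narrow margin, and the log2 change of 0.44 ± 0.18 was not called (limma, adjusted p = 0.073), although it was called under 3 alternatives.

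Hist1h3f (chr13:23544052-23545312, plus strand) was at 20.5, 39.7, 63.8 and 44.6 TPM in the intact mutants and 34.4, 60.01, 34.6, 69.8 and 49.2 TPM in the injured mutants. Wild-type Hist1h3f levels were 37.2, 57.1 and 21.04 TPM in the intact mice and 38.1, 30.1, 50.1 and 28.7 TPM in the injured mice. All groups overlapped, and the log2 change in the mutants was 0.28 ± 0.33 (limma, adjusted p = 0.555). Besides Hist1h3c, large rises were found in Hist1h3g (2.54 ± 0.51, adjusted p = 0.0028) and Hist1h3h (2.51 ± 0.52, adjusted p = 0.0033), the second of which shares 92.0% of its windows.

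H4 forms the centre of the nucleosome with H3, and nearly all copies encode the same protein. Of 13 H4 members 4 rose in injured mutants and none fell, against 13.1% and 17.7% of all tested genes. The median log2 change of the H4 members was 0.61. The difference between classes was not tested. The called members were Hist1h4m (2.57 ± 0.54), Hist1h4n (1.502 ± 0.38), Hist1h4f (1.32 ± 0.23) and Hist1h4i (0.85 ± 0.21) by their log2 changes in the mutants. Hist1h4d (chr13:23581598-23582735, plus strand), the H4 gene with the highest mean, was at 386, 417, 479 and 459 TPM in the intact mutants and 346, 370.5, 289.7, 489.8 and 355 TPM in the injured mutants. Wild-type Hist1h4d levels were 466, 497 and 457 TPM in the intact mice and 434, 318, 336 and 379 TPM in the injured mice. The mutant groups overlapped, and every injured wild-type mouse was below every intact one. Its log2 change was -0.25 ± 0.14 in the mutants (limma, adjusted p = 0.184), against -0.38 ± 0.16 in the wild type (adjusted p = 0.25).

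Hist2h4 (chr3:96261682-96263311, minus strand) was at 44.7, 56.1, 81.8 and 65.6 TPM in the intact mutants and 44.9, 43.7, 62.9, 87.4 and 61.9 TPM in the injured mutants. Wild-type Hist2h4 levels were 59.98, 67.9 and 72.6 TPM in the intact mice and 57.9, 48.4, 51.2 and 57.8 TPM in the injured mice. The mutant groups overlapped, and the log2 change in the mutants was -0.06 ± 0.19 (limma, adjusted p = 0.853). Hist1h4m was uneven among the injured mutants, at 30.5, 2.19, 28.9, 27.4 and 11.7 TPM, against 2.01, 3.13, 1.47 and 0.771 TPM in the intact ones, so mouse 2 was within the intact range. The gene shares 88.1% of its windows.

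The members were split by the form of their gene models, a split made with earlier results known. A model was called long here when a coding transcript ran at least 100 bases past the stem-loop, or past the stop codon where no stem-loop was found, and short otherwise. Of 30 tested short models 22 rose in injured mutants, and of 24 long models 8 rose, against 13.1% of all tested genes. The median log2 change was 1.94 over the short and 0.34 over the long models. The long models had the higher levels, with a median over genes of 21.9 TPM against 9.42 TPM. Which form of mRNA gave the reads of a long model, the stem-loop form or a longer one, was not measured in a gene-level table. Shared sequence gave another split of the same genes: of 21 tested members with under 20% of windows shared 6 rose, and of 36 with at least 20% shared 24 rose.

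The summed level of the 31 short models was 278, 343 and 274 TPM in intact and 276, 296, 737 and 437 TPM in injured wild-type mice. In the mutants it was 185, 177, 233 and 233 TPM in intact and 788, 787, 553, 863 and 402 TPM in injured mice. All 5 injured mutants were above all 4 intact mutants, within the A8 and the M series as well, and the ratio of the means was 3.27. In the wild type the injured mice 3 and 4 were above all intact mice and mice 1 and 2 were within their range, and the ratio of the means was 1.46.

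The summed level of the 24 long models was 1804, 1933 and 1883 TPM in intact and 1532, 1294, 1445 and 1370.0 TPM in injured wild-type mice. In the mutants it was 1322, 1401, 1665 and 1798 TPM and 1669, 1676, 1763, 1955 and 1609 TPM. Every injured wild-type mouse was below every intact one, with a ratio of the means of 0.753, and the mutant groups overlapped, with a ratio of 1.12. Hist1h1c, Hist1h4d, Hist1h1e and Hist1h2bc together gave 65.2% to 68.0% of the summed TPM of all 55 coding members in intact mutants and 43.2% to 57.3% in injured mutants.

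**Figure D3:**
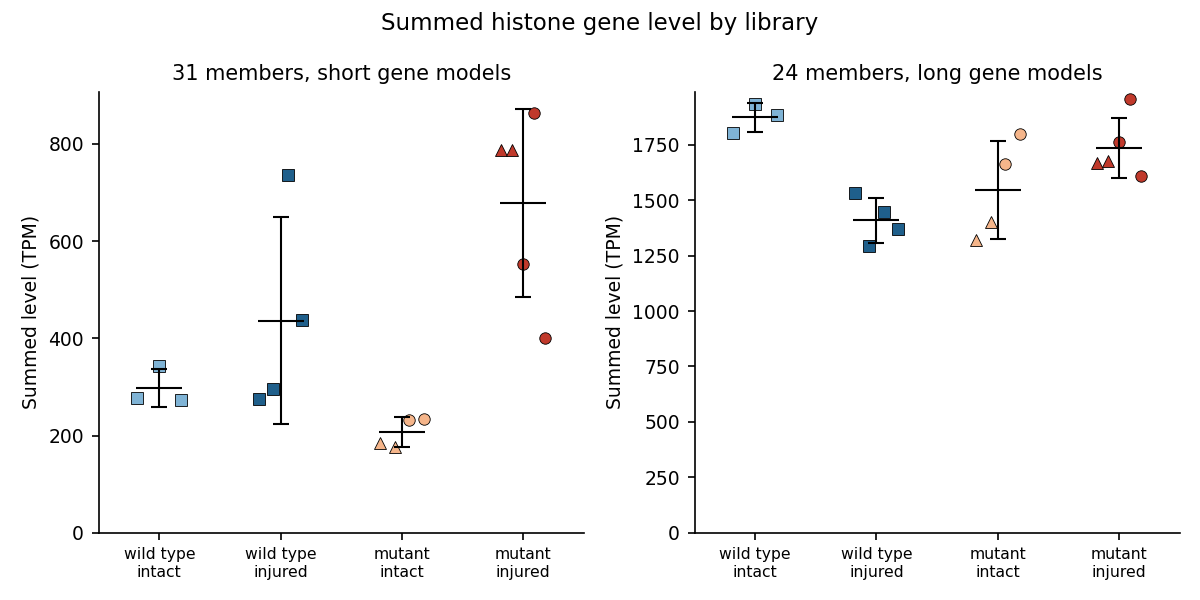
Each point is the summed TPM of 1 mouse over the 31 short gene models (left) and the 24 long gene models (right), with the group mean and SD as a bar; triangles are mutants with A8 names, circles mutants with M names and squares the wild type. On the left all injured mutants (402 TPM and above) are above all intact mutants (233 TPM and below), and on the right the mutant groups overlap.

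The sums were also taken by class, with no test. The H3 sum was 127 ± 19.9 TPM (SD, n = 4) in intact and 335 ± 109.9 TPM (SD, n = 5) in injured mutants, and the H2A sum 57.6 ± 18.1 and 151 ± 48.96 TPM. The H2B sum was 194 ± 32.6 and 302 ± 38.2 TPM. These 3 sums did not overlap between intact and injured mutants. The H1 sum (without H1f0) was 679.7 ± 130.1 and 859.9 ± 66.9 TPM and the H4 sum 695 ± 77.3 and 765 ± 121 TPM, and both overlapped.

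Of the 58 members, 48 are on chromosome 13 (GRCm38), nearly all in large clusters, so most called members lay there too. Over all tested genes 13.1% were called higher in injured mutants. In chr13:21715763-21832196, 10 of 13 tested members rose in injured mutants. In chr13:22035164-22043676, 5 of 5 rose, and in chr13:23531050-23764406, 14 of 28. Outside these stretches 1 of 5 members on chromosome 3 rose (Hist2h3c2), and none of 3 on chromosome 11, 1 on chromosome 6 (Hist4h4) or 1 on chromosome 15 (H1f0). The pseudogene Hist1h2al, elsewhere on chromosome 13, was not called either.

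In the wild type no member was called after injury. Over all tested genes 26 were called higher, which is 0.107%, and 2 lower. At an unadjusted p under 0.05, 14 members passed, 9 of them higher, against 17.2% of all tested genes, and voom on the implied reads also called no member. The median log2 change was 0.03 over the members and 0.01 over all tested genes. In 7 members (Hist1h2ab, Hist1h2ae, Hist1h2bn, Hist1h3b, Hist1h3g, Hist1h3h and Hist1h4f) all injured wild-type mice were above all intact ones, against 9.22% of all genes. In 6 members (Hist2h4, Hist1h4m, Hist1h4d, Hist1h2be, Hist1h2bc and Hist1h1c) all were below, against 6.34%. The median was -0.18 over the long and 0.58 over the short models.

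**Figure D4:**
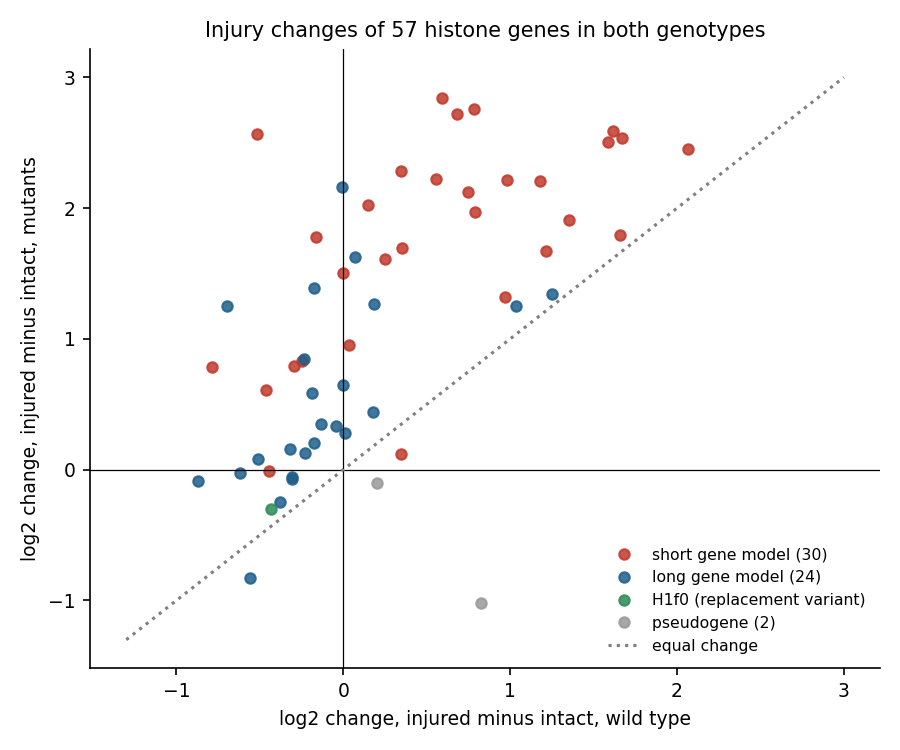
Each point is 1 of the 57 tested members, with its log2 change of TPM + 1 (injured minus intact) in the wild type on the x axis and in the mutants on the y axis; colour gives the kind of gene model and the dotted line equal change. Most points lie above the line. In 53 of 57 members the difference was positive, against 41.8% of all tested genes, though none was called in the test of the difference.

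Whether injury had a different effect in mutants and wild type was tested with the interaction term. No member was called, and no gene of the 24188 tested was called (0.0%). At an unadjusted p under 0.05, 21 members passed, 20 of them with a more positive change in the mutants than in the wild type, against 8.18% of all tested genes, and voom also called none. The median difference was 0.87 over the members and -0.08 over all genes. It was positive in 53 of 57 members, against 41.8% of all tested genes. The intact mutants enter this difference as a baseline, and the members had a median of -0.42 there against the intact wild type. The start of the library name cannot be told apart from genotype in this test. Hist1h4m had the largest difference, 3.08 ± 0.82 (limma, adjusted p = 0.488), and Hist1h1c had a difference of 0.78 ± 0.23 (adjusted p = 0.488). Hist1h4m was named after its values were seen, and it was called in this test when injured mutant 2 was left out.

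Between intact discs of the genotypes no member was called. Over all tested genes 1 was called higher in mutants (0.00413%) and 3 lower. The median log2 difference, mutant minus wild type, was -0.42 over the members and -0.01 over all genes, and 45 of the 57 members had a negative difference. In 12 members every intact mutant was below every intact wild-type mouse, against 3.41% of all genes, and in 1 member, the pseudogene Hist1h2al, every intact mutant was above, against 2.77%. At an unadjusted p under 0.05, 11 members passed, 1 of them higher, against 3.78% of all tested genes. Hist1h3c had the lowest log2 difference, -1.73 ± 0.56, and its adjusted p was 1. The intact mutants are also the baseline of the injury comparison in the mutants, so a low baseline and a high change there come in part from the same libraries. The start of the library name cannot be told apart from genotype here. Hist1h3c is given here because its difference was the lowest. The 5 tested erythroid markers, none of them called, also had negative differences between intact mutants and intact wild type, with a median of -1.57. So had the tested skeletal muscle (median -1.15), endothelial (-0.58), neutrophil precursor (-0.42) and notochordal (-0.36) markers, none of them called. The other lists of cell-type markers each held at least 1 positive difference. The part of any of these cells in the histone values was not tested.

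Between injured discs 1 member, Hist2h3c2, was called higher in mutants. Over all tested genes 46 were called higher (0.19%) and 176 lower. Hist2h3c2 (chr3:96238108-96239127, minus strand), an H3 gene with 61.6% of its windows shared, was at 4.76, 6.78, 5.21 and 6.68 TPM in the intact mutants and 42.1, 8.94, 18.01, 9.92 and 11.7 TPM in the injured mutants. Wild-type Hist2h3c2 levels were 6.66, 4.62 and 11.8 TPM in the intact mice and 3.77, 5.45, 2.95 and 4.38 TPM in the injured mice. All injured mutants were above all injured wild-type mice, and injured mutant 1 was far above the rest. The log2 difference was 1.68 ± 0.37 (limma, adjusted p = 0.049), and the count was 0 without injured mutant 1, 3 or 5 or injured wild-type mouse 1, 2 or 4. It was 8, of which 7 were higher, without injured wild-type mouse 3. The median over the members was 0.48, against -0.09 over all genes, with 47 of 57 differences positive.

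Genes that act with the histone genes were read from lists beside the members. For the counts of each list, 13.1% of all tested genes were called higher and 17.7% lower in injured mutants. Slbp, the stem-loop binding protein, was at 8.596 ± 0.666 TPM (SD, n = 4) in intact and 12.7 ± 2.14 TPM (SD, n = 5) in injured mutants, a log2 change of 0.51 ± 0.16 (limma, adjusted p = 0.026). Npat, the coactivator of histone transcription, had a log2 change of -0.32 ± 0.13 (adjusted p = 0.068). Of 16 genes of histone mRNA transcription and processing 4 rose and none fell in injured mutants, with a median of 0.09. They were Slbp, Casp8ap2, Eri1 (0.66 ± 0.16), an exonuclease that trims histone mRNA, and Cpsf2 (0.87 ± 0.16), a subunit of the cleavage complex. Cpsf3, the cleaving subunit, had a log2 change of -0.09 ± 0.10 (adjusted p = 0.505).

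Histone chaperones carry new histones to DNA. Of 13, 2 rose (Asf1b, 0.77 ± 0.22, and Chaf1b, 0.54 ± 0.17) and 2 fell (Asf1a, -0.56 ± 0.14, and Rbbp4, -0.36 ± 0.09) in injured mutants. These counts were near the shares over all tested genes, 13.1% higher and 17.7% lower. Chaf1a (-0.04 ± 0.22) and Nasp (0.22 ± 0.11) were among those not called. Asf1b is the copy tied to dividing cells, and Asf1a the copy also used outside S phase.

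Of 11 replication-independent variant histones (H1f0 included) 6 rose and 1 fell in injured mutants. H3f3b, one of the genes for H3.3, rose by a log2 of 1.09 ± 0.17 (limma, adjusted p = 9.2e-04), from 273 ± 26.03 to 592 ± 128 TPM. H2afz, which encodes H2A.Z, rose by 0.87 ± 0.19 (adjusted p = 0.0045). The largest rises were in Cenpa, the centromeric H3 (1.55 ± 0.48), and H2afx, which marks DNA breaks when phosphorylated (1.36 ± 0.20). H2afv fell (-0.44 ± 0.15), and H1fx was at -0.45 ± 0.29 without a call. These variants are mostly polyadenylated, and their gene models are not those of the members.

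The cell-cycle lists gave these values beside the histone genes. Of 24 DNA replication genes 9 rose and none fell in injured mutants, with a median of 0.43, and none was called in the wild type, with a median of 0.30. Pcna, the sliding clamp, rose by 0.80 ± 0.14 (limma, adjusted p = 0.0013) and Rrm2, a subunit of ribonucleotide reductase, by 1.88 ± 0.28 (adjusted p = 7.4e-04). Cdc6, which loads the replicative helicase, rose by 1.17 ± 0.30. Pola1 (-0.26 ± 0.14) and Prim1 (-0.19 ± 0.28) had the lowest changes and were not called. Of 14 G2 and mitosis genes all 14 rose in injured mutants, with a median of 1.70. In the wild type none of the 14 was called, and their median was 1.58 with all 14 changes positive. Mki67, the Ki-67 antigen, had log2 changes of 2.32 ± 0.36 in the mutants (adjusted p = 7.6e-04), against 2.198 ± 0.40 in the wild type (adjusted p = 0.057). Plk1, a mitotic kinase, had a log2 change of 2.00 ± 0.38 in the mutants. The histone members, over all 57, had medians of 1.26 in the mutants and 0.03 in the wild type. In the interaction, where no tested gene was called, the 14 mitosis genes had a median of 0.07.

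**Figure D5:**
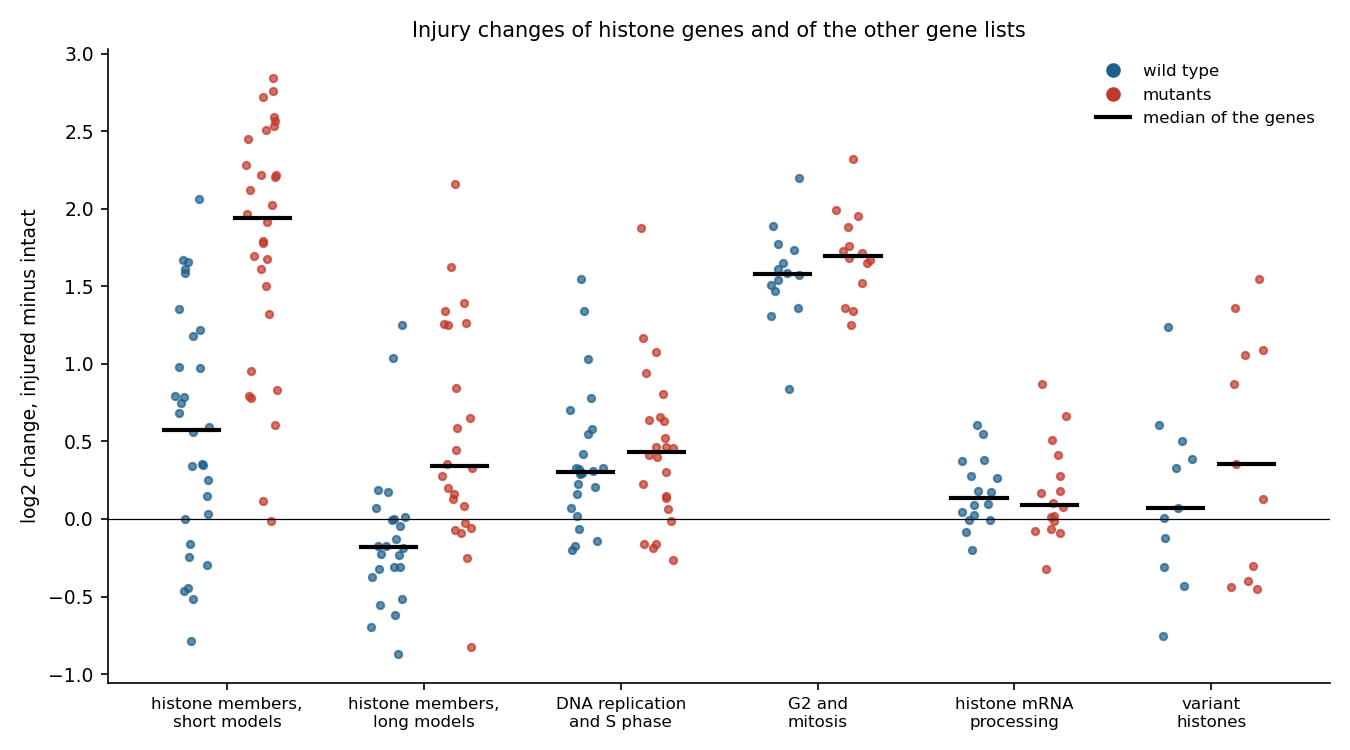
Each point is the log2 change of TPM + 1 (injured minus intact) of 1 gene, in the wild type (blue) and in the mutants (red), with the median of each list as a black line. Short histone models have medians of 0.58 and 1.94 and long models of -0.18 and 0.34, while the 14 mitosis genes have medians of 1.58 and 1.70.

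RNAs without a poly(A) tail were read because the labels differed on the library type, on which a call after injury has no bearing. None of the 8 tested was called after injury in either genotype, and Rnu11 was listed at 0 in every library. Rn7sk was at 31800 to 46930 TPM in intact and 33500 to 38290 TPM in injured mutants. Its log2 change was -0.15 ± 0.72 in the mutants (limma, adjusted p = 0.898). That standard error exceeds what these mice alone give, since limma moderates the variance by a trend with level. A call of Rn7sk was therefore hardly possible. The largest and smallest changes of the others were 0.91 ± 0.83 for Rnu12 and -0.49 ± 0.41 for Rny3. The summed level of the 9 listed RNAs was 37518 to 55651 TPM in intact and 41019 to 45169 TPM in injured mutants.

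Markers of cell types that could bring dividing cells were read as sums. The summed level of 5 macrophage markers (Adgre1, Cd68, Csf1r, Lyz2 and Mrc1) was 121 to 168 TPM in intact and 629 to 6836 TPM in injured mutants, and 4 of the 5 rose. In the wild type it was 127 to 155 TPM in intact mice, 198 and 326 TPM in injured mice 1 and 2, and 3236 and 2092 TPM in injured mice 3 and 4, which were the wild-type mice with the highest sums of short histone models. The 5 neutrophil markers (4 rose in mutants, and Mmp9 was not called) summed to 0.643 to 1.36 TPM in intact mutants and to 13.001 to 1009.8 TPM in injured mutants. Injured mutant 2 had the highest macrophage and neutrophil sums, while the short histone models were highest in injured mutant 4. The part of these cells in the histone result was not tested.

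Markers of cells from blood and marrow were read in the same way. The 7 neutrophil precursor markers summed to 4.40 to 8.97 TPM in intact and 3 to 14.005 TPM in injured mutants. Mpo, Prtn3, Ctsg and Ltf of that list did not pass the filter, and none of the other 3 was called. The 6 erythroid markers summed to 68.1 to 273 TPM in intact and 184 to 1181 TPM in injured mutants, with none called. In wild-type mice the erythroid sum was 265 to 728 TPM in the intact group and 180, 113, 1473 and 725 TPM in injured mice 1 to 4, so it was highest in injured mice 3 and 4 within that group, as were the short histone models. The part of erythroid cells in the histone values was not tested. The 4 B-cell markers summed to at most 6.67 TPM with none called. The 3 T-cell markers summed to at most 5.23 TPM, and Cd2, the one of them tested, rose in injured mutants. The 3 endothelial markers summed to 1.59 to 6.83 TPM in intact and 7.41 to 49.1 TPM in injured mutants, with none called. In the wild type the endothelial sum was 3.49 to 11.6 TPM in intact mice. It was 5.25, 10.3, 138 and 47.8 TPM in injured mice 1 to 4, so it too was highest in mice 3 and 4. The 4 skeletal muscle markers summed to 74.9 to 89.3 TPM in intact and 14.7 to 369 TPM in injured mutants, with none called.

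The libraries carried the markers of the disc. The notochordal markers (Krt19, Krt8, T and Car3) summed to 6203 TPM or more in every intact mouse. In the injured mutants all 4 fell, and their sum was 59.4 to 6063 TPM. The cartilage and annulus markers (Acan, Col2a1, Comp and Col9a1) summed to 3487 TPM or more in every library, and Comp fell in injured mutants (-2.54 ± 0.47).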

How the data were processed

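A single table of TPM values, 49315 genes by 16 mice, was deposited by the authors. Per the submitters' processing notes, bcl2fastq 2.20 and GRCm38 were used, and per the labels' protocols, rRNA was depleted with FastSelect before NEBNext Ultra II library preparation. The aligner, the counting method, its treatment of multi-mapped reads and its use of strand are not given in the sources used here. Of the identifiers, 48970 matched GENCODE M21, which gave positions, transcripts and the windows shared between genes. Promoters came from RefSeq (GRCm38.p6), matched by older symbol and position.

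Groups were taken from the titles, and columns were matched to samples by name. Log2(TPM + 1) was tested with limma 3.58.1 in R 4.3.3 (trended variance), with Benjamini-Hochberg adjustment over all 24188 tested genes. Standard errors are limma's moderated ones, the same that enter its p-values. It was tested on simulated data. Reads were implied from the TPM values, of which 94.1% to 95.0% of the low ones were whole numbers of reads; they gave depth and the voom alternative. P-values set a difference against the spread between mice within groups. That spread was taken over all groups in the fit and moderated by limma towards that of genes of like level. Any member could be named. Those given in every mouse by rule were the 2 with the highest mean TPM of each class and the 4 largest called rises and falls of each comparison, and from each list the 2 largest rises and falls in injured mutants were named. The other somatic H1 genes and further members were added after their values were seen. The members and lists were chosen with earlier results of these data known. The alternatives changed the pseudocount (to 0.1), the filter (none, or a mean of 5 TPM), the scaling (quantiles, median of ratios, or centring by length and GC content), the tool (voom) and the design (a replicate block, a fit of each comparison's own groups, which the interaction does not have, the library name as a covariate, or without each mouse in turn). Fits with the mutants of 1 naming series were chosen after seeing the data. Tables and figures used Python 3.11.15, pandas 2.3.3, numpy 2.4.6 and matplotlib 3.10.9.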

Additional observations from a re-analysis of the deposited data

Results flagged for a closer look

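In 84 groups of 4 or 5 mice, the highest or lowest mouse was compared with the others by Dixon's 95% criterion, which chance alone meets in about 1 in 20 groups. It was met in 7. Injured mutant 3 had the highest Hist1h1c level, 562.6 TPM, against 367 to 412 TPM in the other injured mutants. Injured mutant 1 had the highest Hist2h3c2 level, 42.13 TPM, against 8.94 to 18.01 TPM in the others. Injured wild-type mouse 1 had the highest Hist1h2ac level of its group, 22.19 TPM. Injured wild-type mouse 3 had the highest Hist1h2bf level, 22.87 TPM, and the highest Hist1h1b level, 55.54 TPM, against 16.6 to 21.9 TPM of Hist1h1b in the other injured wild-type mice. The summed H4 level was lowest in injured wild-type mouse 2, at 538.7 TPM, and highest among injured mutants in mouse 4, at 980.5 TPM. Mouse 3 of the injured wild type also had the highest macrophage marker sum of its group, 3236 TPM. Whether these values share a source was not tested.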

How the results depend on the processing

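The count of members called in injured against intact mutants was 30, and it lay between 23 (without intact mutant 1) and 33 under the alternatives fixed at the start, 29 with the replicate block. These counts take calls in either direction. With a mean of 5 TPM 25 members were called, 24 of them higher, and with voom 31 were called, 2 of them lower. Of the fits added after the data were seen, the A8-named mutants gave 20 and the M-named mutants 3. Fewer mice enter those fits. Leaving out each mouse gave 0 to 1 member for injury in the wild type (1, Hist1h1c, without injured mouse 1), 0 to 8 for genotype in injured discs and 0 to 1 for the interaction (1, Hist1h4m, without injured mutant 2). The count for genotype in injured discs, 1, was 0 with no filter, with centring by length and GC content, with voom, with only the groups compared, with the replicate block and with the A8-named mutants, and 2 with the M-named mutants (Hist1h4m and Hist1h4a). The cause was not tested. Of the 21 pairs of mice that share a replicate number, 1 had a correlation of deviations over 0.1 (range -0.217 to 0.151). The deviations are from the means of small groups, so they cannot show whether such mice shared a litter or batch.

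Every log2 change listed here as changing sign was one that was not called in its own comparison; Hist1h2ak, Hist1h2bg and Hist1h1d, listed for the wild type, were called in the mutants. In the wild type, leaving out each mouse gave -0.2903 to 0.0679 for Hist1h2ac, -0.2102 to 0.9419 for Hist1h2ak, -0.4461 to 0.0876 for Hist1h2bg, -0.0243 to 0.3385 for Hist1h3e, -0.3543 to 0.3446 for Hist1h3f and -0.2607 to 0.3091 for Hist1h1d. For Hist1h3f it was -0.0007 with quantile normalization, -0.0982 with centring, -0.0284 with voom and -0.0359 with the replicate block, and for Hist1h1d -0.0217 with centring and -0.0018 with the replicate block. In the mutants, leaving out each mouse gave -0.0122 to 0.1628 for Hist1h2bc, -0.0192 to 0.5109 for Hist1h3f and -0.2007 to 0.0861 for Hist2h4. Hist1h1c was at 0.0001 with median-of-ratios scaling and 0.0458 with centring, and Hist2h4 at 0.0325 with median-of-ratios scaling. With the M-named mutants Hist1h2ac was at -0.0047 and Hist1h3f at -0.1136, and with the A8-named mutants Hist1h2bc was at -0.1977. At a few TPM a member rested on few reads, which limits its precision.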
